A study of Homo sapiens with 9 samples.

Results

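The genes described here encode ligands, receptors and latent binding proteins of the TGF-beta pathway, with a target and a feedback inhibitor of it: TGFB1, TGFB2, LTBP1, LTBP2, LTBP3, TGFBR1, TGFBR2, TGFBR3, TGFBI and SMAD7. They were chosen by gene symbol, and the probe annotation gave these 10 genes 16 of the 22215 probe sets tested (10 of 11963 genes). Their levels were read on 9 arrays of RNA from U251, an established human glioma cell line, with 3 cultures per treatment. The first treatment was an siRNA that targets the transcription factor WT1, delivered with the transfection reagent Oligofectamine. The second was a non-targeting (scrambled) siRNA in the same reagent, and the third was Oligofectamine alone, so that all 9 cultures had the reagent. Both siRNAs were used at 100 nM. All cultures are of 1 cell line.

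TGF-beta ligands are secreted as inactive complexes in which the mature dimer stays wrapped in its own propeptide. A latent binding protein (LTBP) joins that complex through disulphide bonds and anchors it in the extracellular matrix, from which integrins and proteases release the ligand. Freed ligand binds the type II receptor TGFBR2, which recruits and activates the type I receptor TGFBR1, a kinase that phosphorylates SMAD proteins, and the proteoglycan TGFBR3 (betaglycan) presents ligand to them. SMAD7 is induced by the pathway and blocks the type I receptor, and TGFBI is a secreted matrix protein named for its induction by TGF-beta. In malignant glioma TGFB2 is known as a secreted factor that suppresses lymphocytes.

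Values are RMA log2 levels per probe set, and a difference of 1 is a 2-fold change. Array medians lay between 6.45 and 6.53. Arrays fell together by replicate number more than by treatment: over all probe sets 71.4% of the sum of squares lay between numbers and 15.6% between groups. Comparisons were therefore made within replicate numbers (a fit with the number as a block), in limma over all probe sets, with Benjamini-Hochberg adjusted p under 0.05 counted as passing. The brighter WT1 probe set (206067_s_at) had 4.76, 5.09 and 4.82 with the WT1 siRNA in numbers 1, 2 and 3, against 5.59, 5.89 and 5.41 with the scrambled siRNA and 6.05, 6.58 and 5.89 with reagent. It was lower than with the scrambled siRNA by limma's blocked fit (difference −0.74, SE 0.0811, adjusted p = 0.00336) and did not pass without the block (adjusted p = 0.672). Against reagent the difference was −1.29 (limma blocked adjusted p = 0.000619, and 0.394 without the block). Each of these calls held in 18 of 20 alternative fits, and each was lost without the block and without number 2. At the same probe set the scrambled siRNA was itself lower than reagent (−0.55, limma blocked adjusted p = 0.0164), which held in 11 of 20 alternative fits. The other WT1 probe set (216953_s_at) did not pass: the WT1 siRNA differed by −0.18 from the scrambled siRNA (adjusted p = 0.420), with 0.06 in number 3, and by −0.15 from reagent (0.516). Of the glioma markers, VIM and CD44 were brighter than at least 99.3% of the probe sets of every array, NES than 78.3% to 89.4% and GFAP than 31.9% to 85.3%. S100B lay low (12.8% to 36.5%), CHI3L1 was brighter than 39.5% to 46.7%, and the 7 matched leukocyte, epithelial and endothelial markers were brighter than at most 50.9%. The neuronal gene SYT1 was brighter than 63.0% to 74.9%.

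The promoters of the 3 genes with a difference between treatments, LTBP3, TGFB2 and LTBP1, are shown because WT1 binds DNA and lowering it was the aim of the siRNA. TGFB1 is shown as the member whose window held both forms of the motif searched. RefSeq windows of GRCh38.p14, from 250 bases before to 50 bases after a gene's start, were found for all 10 genes, with 23 windows in all. Where a gene had several, the first in the table is printed. They are chr11:65558310-65558609 (minus strand) for LTBP3, chr1:218345086-218345385 (plus strand) for TGFB2, chr2:32946703-32947002 (plus strand) for LTBP1 and chr19:41353873-41354172 (minus strand) for TGFB1. Capitals mark matches, on either strand, to the core shared by WT1 and the EGR factors, searched as GCGTGGGNG and as GCGGGGGCG. The matches do not overlap.
LTBP3: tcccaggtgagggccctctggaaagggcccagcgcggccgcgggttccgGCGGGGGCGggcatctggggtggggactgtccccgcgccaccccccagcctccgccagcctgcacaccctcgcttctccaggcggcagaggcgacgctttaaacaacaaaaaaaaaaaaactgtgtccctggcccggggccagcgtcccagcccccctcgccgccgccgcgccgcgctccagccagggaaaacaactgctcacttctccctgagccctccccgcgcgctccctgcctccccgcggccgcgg
TGFB2: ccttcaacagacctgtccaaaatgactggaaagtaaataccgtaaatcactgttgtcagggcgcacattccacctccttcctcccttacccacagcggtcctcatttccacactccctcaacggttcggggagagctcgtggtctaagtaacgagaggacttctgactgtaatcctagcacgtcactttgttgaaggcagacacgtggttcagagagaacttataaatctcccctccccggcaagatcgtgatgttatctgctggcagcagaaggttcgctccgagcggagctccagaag
LTBP1: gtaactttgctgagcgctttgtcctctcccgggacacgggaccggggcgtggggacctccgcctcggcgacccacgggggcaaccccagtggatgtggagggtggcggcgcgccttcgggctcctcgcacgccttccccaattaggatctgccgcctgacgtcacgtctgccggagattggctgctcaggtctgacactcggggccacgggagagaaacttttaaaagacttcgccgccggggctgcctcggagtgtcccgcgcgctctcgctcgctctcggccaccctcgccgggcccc
TGFB1: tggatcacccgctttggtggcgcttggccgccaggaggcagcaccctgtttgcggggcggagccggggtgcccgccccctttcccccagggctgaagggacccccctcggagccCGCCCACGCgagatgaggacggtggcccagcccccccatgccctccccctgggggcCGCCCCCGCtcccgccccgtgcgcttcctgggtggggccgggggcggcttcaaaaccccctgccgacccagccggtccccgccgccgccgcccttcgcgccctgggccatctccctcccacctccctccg
The LTBP3 window held 1 match to GCGGGGGCG, at base 50. The TGFB1 window held a match to each form, both read on the opposite strand, at bases 115 and 171. No match lay in the windows printed for TGFB2 and LTBP1. Over the 23 windows 2 held GCGTGGGNG, 1 of TGFB1 and 1 of TGFBR1, and 2 held GCGGGGGCG, 1 of LTBP3 and 1 of TGFB1. Of 35116 RefSeq windows of this length 2.8% held the first form and 5.07% the second. These shares were not matched for GC content, whose median over those windows was 58.7%. The windows with a match had 77.3% (TGFB1), 72% (LTBP3) and 80% (TGFBR1), and a TGFBR1 window without a match had 80.7%. A match is a run of letters and not a measured site, and windows of 1 gene can overlap.

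Of the latent binding proteins, LTBP3 was higher with the WT1 siRNA than in either control. LTBP1 was lower than with the scrambled siRNA at 1 of its 2 probe sets and passed at neither against reagent, and LTBP2 passed in no comparison. LTBP3, which binds the latent complex and is known to be needed for its secretion, rose 1.44-fold against the scrambled siRNA and 1.48-fold against reagent. LTBP3 (219922_s_at) had log2 levels of 6.98, 6.88 and 7.94 with the WT1 siRNA in numbers 1, 2 and 3, against 6.55, 6.52 and 7.16 with the scrambled siRNA and 6.54, 6.33 and 7.25 with reagent. In each number the WT1 siRNA gave the highest of the 3 values, but the groups overlapped, because the controls of number 3 were higher than the WT1 siRNA cultures of numbers 1 and 2. Its means were 7.27 (SD 0.587), 6.74 (SD 0.361) and 6.70 (SD 0.484) in these groups (n = 3 each). The difference was 0.52 against the scrambled siRNA (SE 0.0838, limma blocked adjusted p = 0.0128), with 0.43, 0.36 and 0.78 in the 3 numbers. Against reagent it was 0.56 (SE 0.0838, limma blocked adjusted p = 0.0185), with 0.45, 0.55 and 0.69 in the numbers. The 2 controls differed by 0.04 (95% confidence interval −0.15 to 0.23).

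Without the block the LTBP3 differences had an SE of 0.337 and did not pass (limma adjusted p = 1.00 in both). With the number as a random effect they did not pass either (adjusted p = 0.115 against the scrambled siRNA and 0.149 against reagent), and with only the arrays of the 2 groups fitted the call against reagent was lost (0.0603). Against the scrambled siRNA the blocked call was also lost without scrambled replicate 1 (adjusted p = 0.0579) or 3 (0.0544) and without replicate numbers 2 (0.132) or 3 (0.0533). The call against reagent was lost without reagent replicate 1 (0.0554), 2 (0.140) or 3 (0.0674), without WT1 siRNA replicate 2 (0.0673) and without numbers 2 (0.236) or 3 (0.0539). The difference stayed between 0.40 and 0.61 against the scrambled siRNA and between 0.47 and 0.62 against reagent over 20 alternatives each.

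LTBP1, the most widely studied carrier of latent TGF-beta, had 2 probe sets. The brighter (202729_s_at) had 6.77, 7.38 and 7.24 with the WT1 siRNA, against 7.36, 7.79 and 7.71 with the scrambled siRNA and 6.86, 7.58 and 7.70 with reagent. Within each number the WT1 siRNA gave the lowest value and the scrambled siRNA the highest, and across numbers the groups overlapped. It was lower with the WT1 siRNA than with the scrambled siRNA by 0.49 on the log2 scale (difference −0.49, SE 0.0890, limma blocked adjusted p = 0.0217). Against reagent the difference of −0.25 did not pass (SE 0.0890, limma blocked adjusted p = 0.221), with −0.09, −0.20 and −0.46 in the 3 numbers.

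The dimmer LTBP1 probe set (202728_s_at) had 6.82, 6.98 and 6.73 with the WT1 siRNA, against 7.21, 7.27 and 6.88 with the scrambled siRNA and 6.79, 6.89 and 6.75 with reagent. Here the WT1 siRNA and reagent values lay side by side and the scrambled siRNA was highest in every number. Its difference from the scrambled siRNA was −0.28 (SE 0.0694) and did not pass (limma blocked adjusted p = 0.0682), and that from reagent was 0.03 (95% confidence interval −0.12 to 0.19). The 2 probe sets thus shared the direction against the scrambled siRNA and not against reagent. Between scrambled siRNA and reagent they differed by 0.24 and 0.31, and neither passed (limma blocked adjusted p = 0.308 and 0.0748), though the second passed with estimated array weights (0.0225). The LTBP1 call against the scrambled siRNA did not hold without the block (SE 0.245, limma adjusted p = 1.00) or with the number as a random effect (0.0778). It was lost without scrambled replicate 1 (0.0970) or 2 (0.106), WT1 siRNA replicate 2 (0.0758) or 3 (0.0603), or numbers 1 (0.0522) or 2 (0.215).

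LTBP2, a fibrillin-like matrix protein that does not bind latent TGF-beta, ranged from 6.19 to 6.71 over the 9 arrays (204682_at). Its 3 differences lay between −0.08 and 0.08. The 95% confidence interval against the scrambled siRNA was −0.24 to 0.07, which does not reach the differences of LTBP3 (0.52) or LTBP1 (−0.49).

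**Figure D1:**
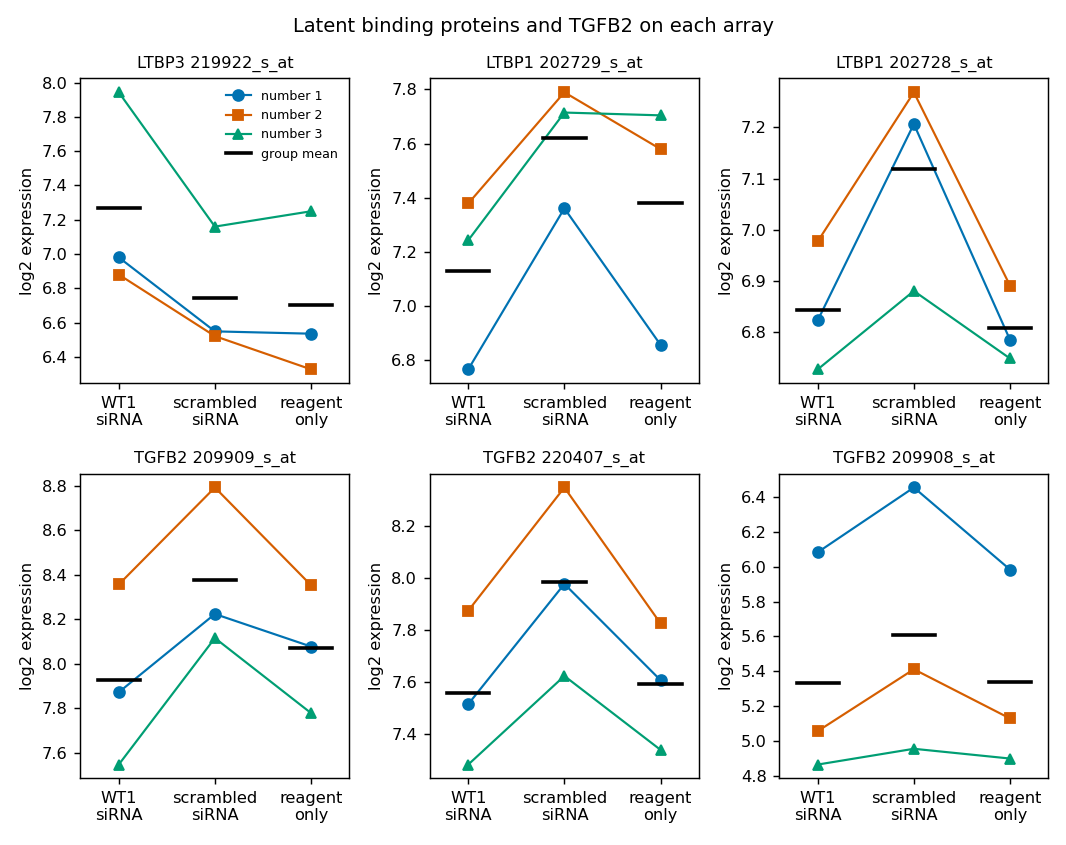
Log2 expression (y axis) of LTBP3, LTBP1 and 3 of the TGFB2 probe sets in each treatment group (x axis); coloured points joined by lines are the arrays of 1 replicate number and black bars are group means (n = 3). LTBP3 is highest with the WT1 siRNA in each number, while LTBP1 and TGFB2 peak with the scrambled siRNA in each number.

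Of the ligands, TGFB2 was lower with the WT1 siRNA than with the scrambled siRNA and near its level with reagent alone, and TGFB1 passed in no comparison. TGFB2 had 4 probe sets. The brightest (209909_s_at) had 7.87, 8.36 and 7.55 with the WT1 siRNA, against 8.22, 8.79 and 8.12 with the scrambled siRNA and 8.08, 8.35 and 7.78 with reagent. In each number the scrambled siRNA gave the highest value, and the other groups exchanged places between numbers. Its difference from the scrambled siRNA was −0.45 (SE 0.0727, limma blocked adjusted p = 0.0131), a level of 73.1%. Against reagent it was −0.14 (95% confidence interval −0.31 to 0.02, limma blocked adjusted p = 0.390).

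The second brightest (220407_s_at) had 7.51, 7.87 and 7.28 with the WT1 siRNA, against 7.98, 8.35 and 7.62 with the scrambled siRNA and 7.61, 7.82 and 7.34 with reagent. It followed the same order: scrambled siRNA on top in every number, with the WT1 siRNA and reagent close together below it. The difference from the scrambled siRNA was −0.43 (SE 0.0640, limma blocked adjusted p = 0.00944) and that from reagent −0.03 (95% confidence interval −0.18 to 0.11). This probe set also rose under the scrambled siRNA relative to reagent, by 0.39 (SE 0.0640, limma blocked adjusted p = 0.0234), the single call among the members in that comparison. The brightest probe set differed there by 0.31 and did not pass (limma blocked adjusted p = 0.0912, and 0.0180 with estimated array weights). The comparisons with the scrambled siRNA share its 3 arrays, so the fall against it and the rise over reagent are not separate evidence.

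Another TGFB2 probe set (209908_s_at) was dimmer, at 6.08, 5.06 and 4.87 with the WT1 siRNA, against 6.45, 5.41 and 4.96 with the scrambled siRNA and 5.98, 5.13 and 4.90 with reagent. It had the scrambled siRNA highest in every number too, and its difference of −0.27 did not pass (SE 0.0804, limma blocked adjusted p = 0.115). The last (220406_at) lay in the dimmest 25% of all probe sets by its mean over the arrays, between 4.73 and 5.17, with differences of −0.08, −0.03 and 0.05. Without the block no TGFB2 probe set passed (limma adjusted p = 1.00 for the 2 that had passed against the scrambled siRNA, SE 0.25 and 0.217). With the number as a random effect the adjusted p against the scrambled siRNA was 0.0830 for 209909_s_at and 0.0606 for 220407_s_at, and that of 220407_s_at between scrambled siRNA and reagent was 0.146. The call of 209909_s_at against the scrambled siRNA was lost without scrambled replicate 2 (0.107) or 3 (0.0716), or numbers 2 (0.174) or 3 (0.0806). That of 220407_s_at was lost without scrambled replicate 1 (0.0551) or 2 (0.0901), WT1 siRNA replicate 2 (0.0524), or numbers 1 (0.0586) or 2 (0.196). Its call between scrambled siRNA and reagent was lost without any 1 of the 6 arrays compared (0.0507 to 0.186) and without any number (0.0556 to 0.448).

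TGFB1, the most widely expressed ligand of the family, had 2 probe sets. The brighter (203085_s_at) had 9.01, 7.67 and 8.95 with the WT1 siRNA, against 9.12, 7.63 and 9.20 with the scrambled siRNA and 8.75, 7.62 and 8.69 with reagent. All 3 cultures of number 2 were low, whatever the treatment, and in numbers 1 and 3 the scrambled siRNA was again on top. Its differences were −0.11 and 0.19 against the scrambled siRNA and reagent (SE 0.0867, limma blocked adjusted p = 0.631 and 0.342) and 0.30 between these controls (adjusted p = 0.176). The other TGFB1 probe set (203084_at) lay between 5.33 and 5.74 with differences of −0.11, 0.04 and 0.15.

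No receptor probe set passed in any comparison. TGFBR2, which binds the ligand first, had 9.09, 9.19 and 8.43 with the WT1 siRNA at its brighter probe set (208944_at), against 9.05, 9.25 and 8.68 with the scrambled siRNA and 8.73, 8.99 and 8.71 with reagent. The groups overlapped and the sign of the differences changed between numbers. The difference was −0.09 against the scrambled siRNA (95% confidence interval −0.33 to 0.14) and 0.09 against reagent (−0.14 to 0.32). Its dimmer probe set (207334_s_at) differed by −0.08 and 0.04 in these comparisons.

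TGFBR1 (206943_at) ranged from 5.28 to 6.26 and was highest in number 1 in each group. It differed by −0.11 from the scrambled siRNA (95% confidence interval −0.33 to 0.11) and by −0.06 from reagent (−0.29 to 0.16). TGFBR3 (204731_at), between 4.55 and 5.08, was in the dimmest 25% of probe sets, and its differences were 0.07, 0.02 and −0.06.

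TGFBI (201506_at) had 12.82, 12.83 and 12.26 with the WT1 siRNA, against 12.97, 12.89 and 12.51 with the scrambled siRNA and 12.52, 12.74 and 12.34 with reagent. In each number the scrambled siRNA gave the highest value. None of its differences passed: −0.15 against the scrambled siRNA (SE 0.0797, limma blocked adjusted p = 0.390), 0.10 against reagent (0.598) and 0.26 between the controls (0.208).

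SMAD7 (204790_at), the inhibitor that closes the feedback loop, had 5.62, 6.33 and 5.69 with the WT1 siRNA, against 5.81, 6.67 and 6.30 with the scrambled siRNA and 5.44, 6.20 and 6.24 with reagent. The scrambled siRNA was highest in each number, and reagent lay below the WT1 siRNA in numbers 1 and 2 and above it in number 3. Its differences of −0.38, −0.08 and 0.30 did not pass (SE 0.124, limma blocked adjusted p = 0.153, 0.817 and 0.381). Without reagent replicate 3 the first passed (adjusted p = 0.0489).

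**Figure D2:**
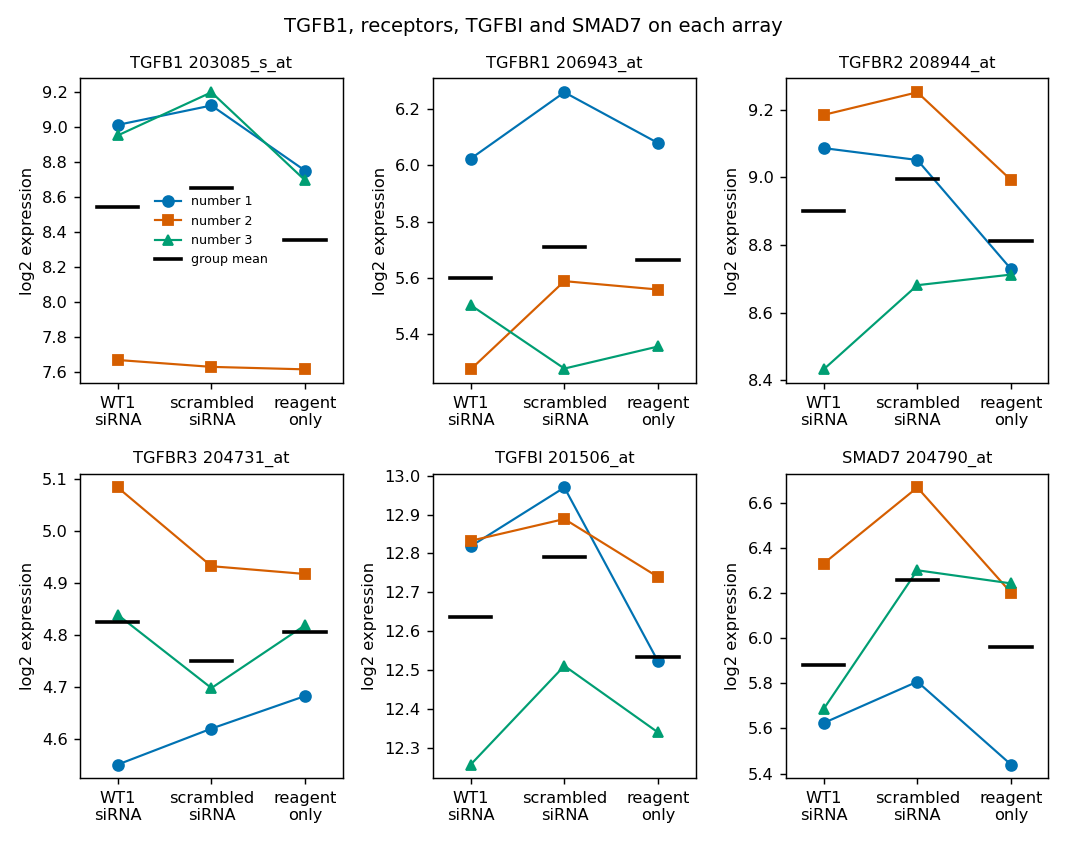
Log2 expression (y axis) of TGFB1, the receptors, TGFBI and SMAD7 by treatment group (x axis), 1 probe set each; coloured points joined by lines are arrays of 1 replicate number and black bars are group means (n = 3). All 3 arrays of number 2 are low for TGFB1 (7.62 to 7.67), and TGFBI and SMAD7 peak with the scrambled siRNA in each number.

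Across the members, 4 of the 16 probe sets passed between WT1 siRNA and scrambled siRNA, 1 higher (LTBP3) and 3 lower (2 of TGFB2 and 1 of LTBP1), where 3.27% of all probe sets passed (1.33% higher, 1.94% lower). Against reagent 1 passed, LTBP3, which was higher, and 1.25% of all did (0.41% higher, 0.837% lower). Between scrambled siRNA and reagent 1 passed, of TGFB2, which was higher, and 1.09% of all did (0.554% higher, 0.536% lower). The probe sets of 1 gene are not separate evidence, so these counts stand for 3, 1 and 1 of the 10 genes. Without the block limma passed 0 of the 16 in any comparison, where 0.018%, 0% and 0.0045% of all probe sets passed. At an unadjusted p under 0.05 it gave 1, 0 and 1 of the 16 without the block (3.71%, 2.77% and 2.17% of all) and 7, 2 and 8 with it (16.4%, 15.1% and 11.9% of all). The difference had the same sign in all 3 numbers for 10, 3 and 9 of the 16 (35.1%, 33.4% and 37% of all). In none of the comparisons did any of the 16 separate the groups without overlap, which 6.67%, 5.5% and 5.26% of all probe sets did. The count against the scrambled siRNA was 1 without scrambled replicate 1 or 2, 2 without scrambled replicate 3 or WT1 siRNA replicate 2, and 2, 0 and 2 without numbers 1, 2 and 3. Over all probe sets the calls fell from 726 to 224, 88 and 292 without scrambled replicates 1, 2 and 3. They fell to 208 without WT1 siRNA replicate 2, and to 383, 2 and 374 without numbers 1, 2 and 3.

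The median difference of the 16 probe sets was −0.11 between WT1 siRNA and scrambled siRNA, 0.01 between WT1 siRNA and reagent and 0.21 between scrambled siRNA and reagent, and the medians of all probe sets were 0.00, 0.01 and 0.01. In the last comparison 15 of the 16 lay above 0, all but TGFBR3. The share of all probe sets above 0 was not counted, and several of the 16 are of the same gene. The scrambled siRNA gave the highest of the 3 values in all 3 numbers for 8 of the 16 probe sets, of TGFB2 (3), LTBP1 (2), TGFBR2, TGFBI and SMAD7, while 7.73% of all probe sets did so. These 8 stand for 5 of the 10 genes. TGFBR2 counts by its dimmer probe set, where number 2 had 5.460 with the scrambled siRNA and 5.459 with the WT1 siRNA. At its brighter probe set the scrambled siRNA was highest in 1 number. With the WT1 siRNA highest in all numbers there was 1 probe set, of LTBP3 (7.07% of all), and with reagent highest there were 0 (5.77% of all). This pattern was described after the values had been seen and was not tested.

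**Figure D3:**
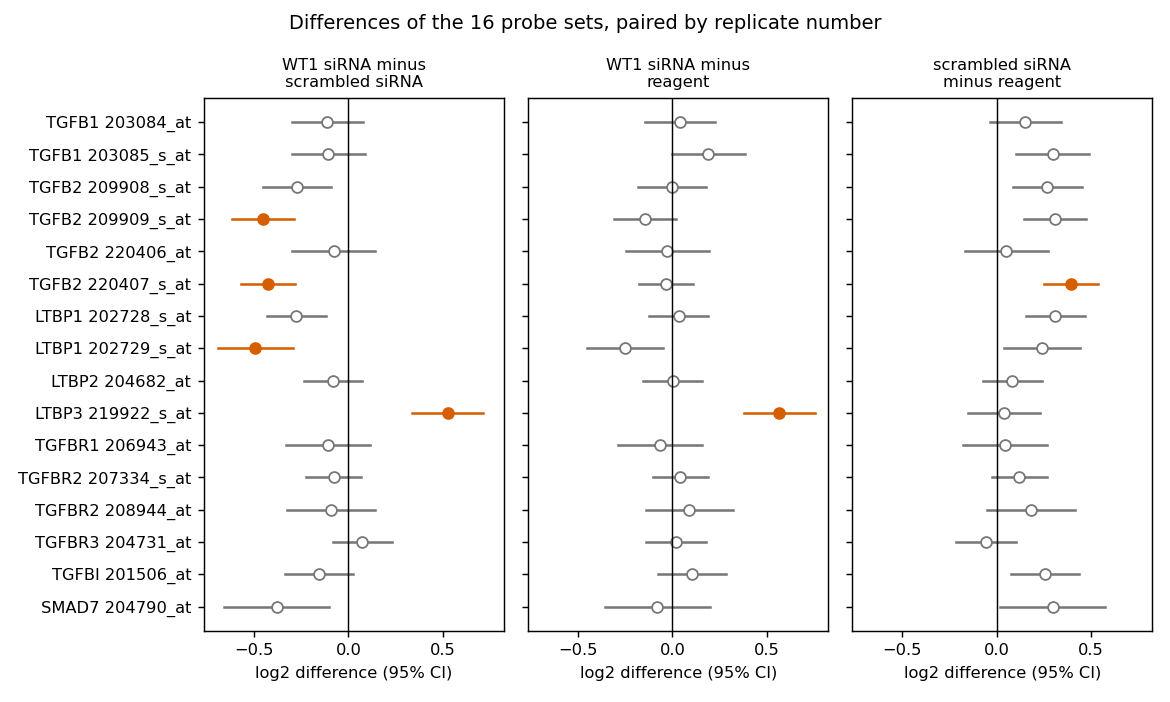
Log2 difference (x axis) of each of the 16 probe sets (rows) in the 3 comparisons, from the fit paired by replicate number; points are estimates, bars are 95% confidence intervals, and filled orange points passed at an adjusted p under 0.05. LTBP3 stands above 0 in both comparisons of the WT1 siRNA (0.52 and 0.56), and 15 of 16 points lie above 0 in the comparison of the controls. The share of all probe sets above 0 there was not counted.

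Most of the spread of these genes lay between cultures of different replicate numbers. By limma's moderated F test in the same fit 14 of the 16 probe sets differed between numbers, where 49.7% of all probe sets did. Over all probe sets together 71.4% of the sum of squares lay between numbers and 15.6% between groups. For 14 of the 16 member probe sets the numbers held the larger share, which was not counted over all probe sets. The exceptions were the dimmer probe sets of TGFB1 (23.2% between numbers, 30.2% between groups) and LTBP1 (33.8% and 57.2%). The sources used here do not say what a number stands for.

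TGFB1 (203085_s_at) spread most, with number means of 8.96, 7.64 and 8.95 (F test adjusted p = 1.26e-05). Its range between numbers, 1.32, was far above its range between groups, 0.30. LTBP3 was highest in number 3, with means of 6.69, 6.58 and 7.45 (adjusted p = 8.08e-05). TGFB2 differed between probe sets. The dim 209908_s_at was highest in number 1 (means 6.17, 5.20 and 4.91), whereas 209909_s_at (8.06, 8.50 and 7.81) and 220407_s_at (7.70, 8.01 and 7.41) were highest in number 2. All 3 passed the F test (adjusted p up to 0.000230). SMAD7 also peaked in number 2 (5.62, 6.40 and 6.08), and TGFBR1 in number 1 (6.12, 5.47 and 5.38).

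**Figure D4:**
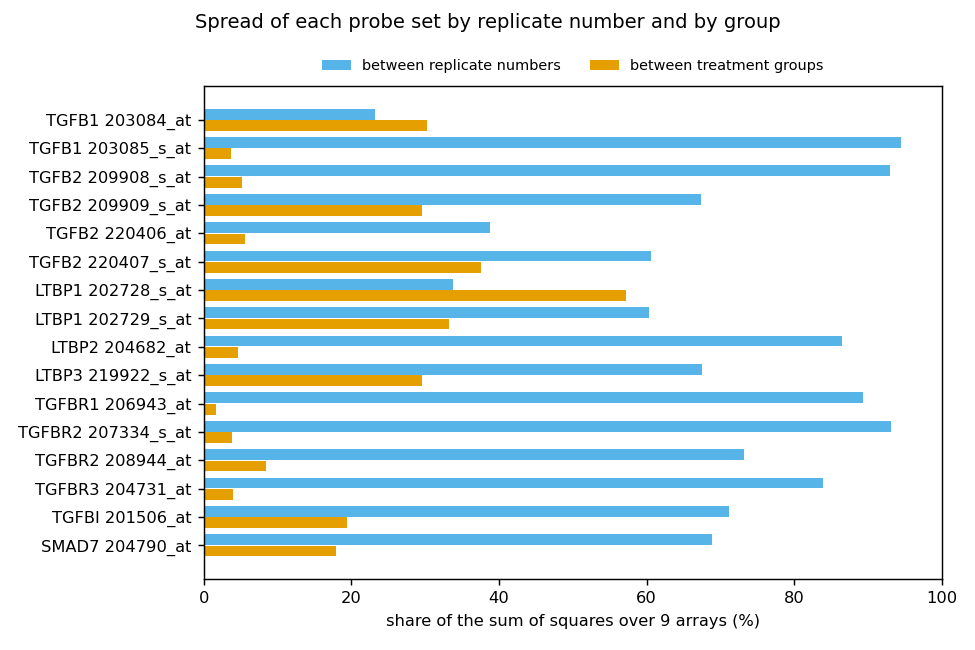
Share of each probe set's sum of squares over the 9 arrays (x axis, %) that lies between the 3 replicate numbers (blue) and between the 3 treatment groups (orange), for the 16 probe sets (rows). The number holds the larger share for 14 of 16, with 94.5% for the brighter TGFB1 probe set. Over all probe sets pooled, the numbers hold 71.4% and the groups 15.6%.

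Other genes of the pathway were taken from 7 lists, each gene by its brightest probe set, and 85 of the 92 genes were found. Between WT1 siRNA and scrambled siRNA 3 rose and 2 fell (5.88%, where 3.7% of all genes passed, 1.39% higher and 2.32% lower), and the median was −0.03 (0.00 over all genes). Against reagent 1 rose and 2 fell (3.53%, where 1.4% of all passed, 0.376% higher and 1.02% lower), with a median of 0.05 (0.01 over all genes). Between scrambled siRNA and reagent 3 rose and 1 fell (4.71%, where 1.21% of all passed, 0.644% higher and 0.568% lower), with a median of 0.08 (0.01 over all genes). None of these passed without the block in limma.

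Among genes that store or activate the latent complex, 18 of 20 were measured. ITGB1, the integrin beta chain shared by many matrix receptors, rose against the scrambled siRNA by 0.38 (SE 0.0604, limma blocked adjusted p = 0.0120). It had 11.88, 11.92 and 11.51 with the WT1 siRNA, against 11.50, 11.48 and 11.18 with the scrambled siRNA. Reagent gave 11.63, 11.75 and 11.43, between the siRNAs in each number. Against reagent the WT1 siRNA passed neither in the main fit nor in any of 20 alternatives. PLAU, the urokinase that generates plasmin, fell against the scrambled siRNA (−0.49, SE 0.0856, adjusted p = 0.0198), rose under the scrambled siRNA relative to reagent (0.57, adjusted p = 0.0169), and stood 0.09 above reagent with the WT1 siRNA (adjusted p = 0.686). The other PLAU probe set (211668_s_at) had differences of −0.53 and 0.68 in the first 2 of these comparisons and passed in both (adjusted p = 0.00519 and 0.00325). The other 4 ITGB1 probe sets did not pass. Their group means were 3.57 to 4.28, within the dimmest 25% of probe sets, which lay below 5.04. Over 20 alternatives the ITGB1 call held in 14, and the PLAU calls in 13 against the scrambled siRNA and 11 between the controls.

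Of the 7 signalling SMADs and SMAD6, SMAD5, which carries BMP signals, rose against the scrambled siRNA (0.36, SE 0.0794, limma blocked adjusted p = 0.0448), as did its other probe set (0.54, adjusted p = 0.00751). SMAD5 had 7.61, 7.55 and 7.28 with the WT1 siRNA, against 7.31, 7.33 and 6.74 with the scrambled siRNA. Reagent gave 7.59, 7.33 and 6.99, and the WT1 siRNA did not pass against it in the main fit or 20 alternatives. Its other probe set differed from reagent by 0.17 with WT1 siRNA and −0.37 with scrambled siRNA (limma adjusted p = 0.315 and 0.0546). SMAD6, an inhibitory SMAD, fell against reagent (−0.33, SE 0.0623, adjusted p = 0.0418), and its other 3 probe sets did not pass. Of these, 209887_at and 213565_s_at had group means of 4.59 to 4.82, within the dimmest 25% of probe sets (below 5.04). The third, 209886_s_at, had 5.76 to 5.81. SMAD6 had 7.42, 7.43 and 7.43 with the WT1 siRNA, against 7.56, 7.46 and 7.56 with the scrambled siRNA. Reagent gave 7.68, 7.73 and 7.86, so the scrambled siRNA was below reagent in each number too. SMAD6 did not pass between these controls or between the siRNAs. The SMAD5 (205188_s_at) and SMAD6 calls each held in 6 of 20 alternatives. Over 12 that left out an array or a number, SMAD5 passed in 1 and SMAD6 in 0. With only the arrays of the 2 groups fitted both were lost (adjusted p = 0.0789 and 0.154), and SMAD5 was also lost with the number as a random effect (0.124). In the lists of other family ligands (13 of 14 measured), other receptors (8 of 9), intracellular regulators (12 of 13) and secreted antagonists (4 of 5), limma called 0 genes in any comparison.

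Of the 24 genes known to respond to TGF-beta, 23 were measured, and their calls went in both directions. COL1A2, a chain of type I collagen, rose against the scrambled siRNA (0.56, SE 0.0721, limma blocked adjusted p = 0.00580) and fell under the scrambled siRNA relative to reagent (−0.55, adjusted p = 0.0109). Its other probe set (202404_s_at) passed in the first of these comparisons (0.46, adjusted p = 0.0406) and not in the second (−0.38, adjusted p = 0.132). With the number as a random effect neither COL1A2 call held (202403_s_at, adjusted p = 0.214 and 0.373). KLF10, an early TGF-beta-induced transcription factor, fell against the scrambled siRNA (−0.51, adjusted p = 0.00644) and against reagent (−0.35, adjusted p = 0.0424). Both KLF10 calls were lost with the number as a random effect (0.0920 and 0.297), and that against reagent held in 6 of 20 alternatives and 1 of 12 that left out an array or a number. CCN2, connective tissue growth factor, rose against reagent (0.57, adjusted p = 0.0122), a call that held in 13 of 20 alternatives. It had 11.67, 11.96 and 11.35 with the WT1 siRNA and 11.45, 11.60 and 11.38 with the scrambled siRNA. Reagent gave 11.05, 11.25 and 10.96, so the scrambled siRNA was above reagent in each number too. That difference did not pass in the main fit and passed in 4 of 20 alternatives. Between WT1 siRNA and scrambled siRNA CCN2 passed in 0 of 20. COL4A1, a basement membrane collagen, and CCN1, a matricellular protein related to CCN2, rose under the scrambled siRNA relative to reagent (0.66 and 0.37, adjusted p = 0.0173 and 0.0365). Their other probe sets did not pass there (0.54, adjusted p = 0.0500425 for COL4A1, and 0.42, 0.0748 for CCN1). Over 20 alternatives the COL4A1 call held in 11 and the CCN1 call in 7, and CCN1 was lost when arrays were centred on their median (0.0593). IL11, a cytokine, lay farthest from 0 in 2 comparisons without passing, at −0.85 between WT1 siRNA and scrambled siRNA (adjusted p = 0.0666) and 1.00 between scrambled siRNA and reagent (0.0644). The second passed in 5 of 20 alternatives: with array weights (0.0112), with only the arrays of the 2 groups (0.00572), and without WT1 siRNA replicate 1 (0.00467), WT1 siRNA replicate 3 (0.0478) or number 1 (0.0356). CCN1 and IL11 were picked after their values had been seen. The median of this list was 0.02, 0.03 and 0.01 in the 3 comparisons. The list was not split by the direction in which TGF-beta moves a gene, so this median does not measure pathway response.

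These counts rested on single arrays. Against the scrambled siRNA the count over all lists was 3 without scrambled replicate 1 or 3, 2 without WT1 siRNA replicate 2 and 0 without scrambled replicate 2. Against reagent it was 0 without reagent replicate 1 or 2 or WT1 siRNA replicate 2, and 1 without reagent replicate 3 or any scrambled replicate. Between scrambled siRNA and reagent it was 8 and 7 without WT1 siRNA replicates 1 and 3, 0 without scrambled replicate 1 or 2 or reagent replicate 2, 1 without reagent replicate 1 and 2 without replicate 3 of either. Without numbers 1, 2 and 3 the counts were 2, 0 and 5, then 0, 0 and 2, then 2, 0 and 3 in these comparisons.

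**Figure D5:**
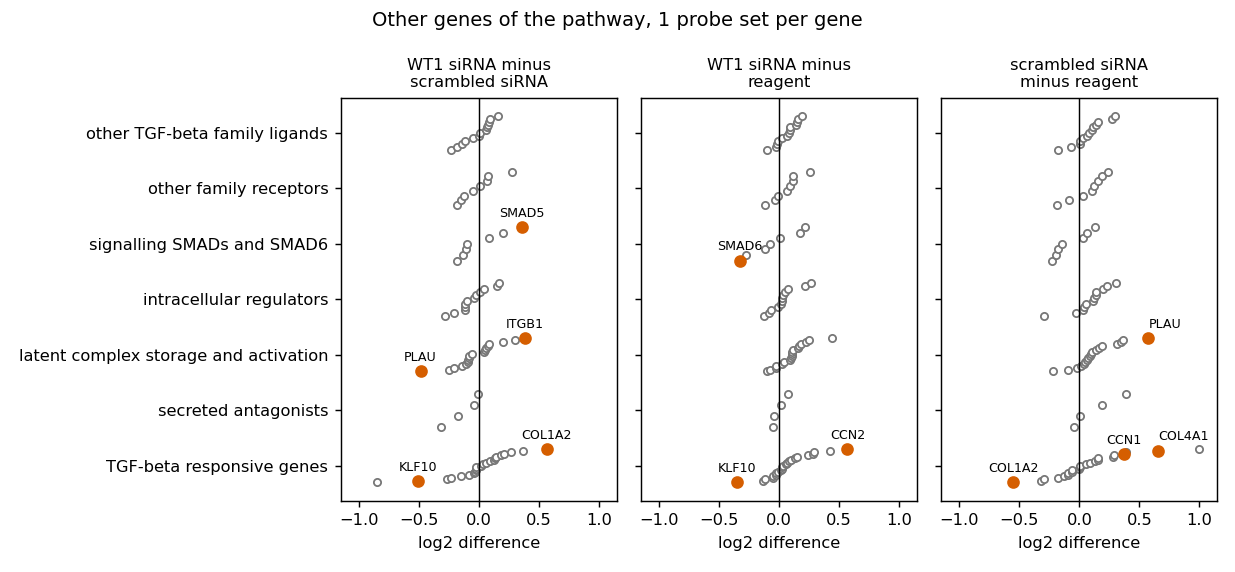
Log2 difference (x axis) of 85 other pathway genes, 1 probe set each, by list (rows) in the 3 comparisons; filled orange points passed at an adjusted p under 0.05 in the fit paired by replicate number and are named. The calls go both ways, 3 higher and 2 lower between WT1 siRNA and scrambled siRNA.

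For the 3 members with a call, the genes with the nearest profile over the 9 arrays were found by the root mean square difference in log2 level, after each array was set against the mean of its replicate number. Nearest to LTBP3 were PINK1 (0.0984), NRN1 (0.113) and RABAC1 (0.114), where LTBP3's own root mean square was 0.269. The median difference of all other genes from LTBP3 was 0.276. For TGFB2 (220407_s_at) the nearest were MFSD1 (0.0280), DNAJC12 (0.0313) and CCN3 (0.0326), with an own value of 0.198 and a median difference of all other genes of 0.210. Nearest to LTBP1 (202729_s_at) were CARD10 (0.0417), COL4A5 (0.0486) and MN1 (0.0580), with an own value of 0.220 and a median difference of 0.234. The nearest genes were thus farther from LTBP3 than from TGFB2 and LTBP1.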

How the data were processed

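RNA from 9 cultures was hybridised to 9 Affymetrix arrays. Per the submitters' processing notes the authors processed them with RMA, so the deposited log2 values are background corrected, normalised between arrays and summarised per probe set; the sources used here do not give the software, its version or a genome build. Of 22277 probe sets 62 chip controls were left out. Symbols came from the platform annotation: 19064 probe sets had 1, 1043 several and 2108 none, and no name was taken from a probe set with several. No probe coordinates are given. Depth has no counterpart on arrays, and their number limits the precision.

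Groups and replicate numbers came from the sample titles. Linear models were fitted with limma 3.58.1 in R 4.3.3 to all 9 arrays, with a mean per group and the replicate number as a fixed block, and figures were drawn with matplotlib 3.10.9. Across groups, same-numbered arrays had deviations from their group means that correlated at 0.647 to 0.849 over probe sets (9 pairs), and other pairs at −0.611 to −0.031 (18 pairs). The deviations of a group cancel out, so positive values for same-numbered pairs push the other pairs negative by arithmetic. Adjustment was over all 22215 probe sets. The series calls the arrays biological triplicates; p-values measure the spread left within numbers. The member genes, lists and the choice of the blocked fit were made with earlier results of these data known. Named were all members, WT1, up to 4 called genes per list by smallest p, and 3 nearest profiles per called member. The procedure was tested on simulated data. Alternatives were no block, a random block, the groups compared alone, median centring, quantile normalisation, a filter on the dimmest 25%, an intensity trend with robust prior, array weights, left-out arrays or numbers, and, for the lists, gene means.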

Additional observations from a re-analysis of the deposited data

How the results depend on the processing

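Counts below are for WT1 siRNA against scrambled siRNA, WT1 siRNA against reagent, and scrambled siRNA against reagent, in that order. The replicate block decided the calls: without it limma passed 0, 0 and 0 member probe sets, 0, 0 and 0 other pathway genes and 4, 0 and 1 of all probe sets (825, 616 and 483 at an unadjusted p under 0.05), against 4, 1 and 1, 5, 3 and 4, and 726, 277 and 242 with it. With the number as a random effect the members gave 0, 0 and 0, the other genes 2, 2 and 0 and all probe sets 356, 118 and 88. With an intensity trend and robust prior the other genes gave 8, 6 and 11 and all probe sets 1091, 595 and 485. Array weights gave 3 member calls in the last comparison, 7 and 16 other genes in the last 2, and 1140, 643 and 782 probe sets. With the groups compared fitted alone the members gave 0 in the second comparison, the other genes 3, 0 and 10 and all probe sets 390, 3 and 535. With gene means the last comparison had 7 other genes. Leaving out 1 array or 1 number, the members ranged from 0 to 5, 0 to 1 and 0 to 1, the other genes from 0 to 5, 0 to 3 and 0 to 8, and all probe sets from 2 to 706, 0 to 465 and 3 to 387. The lowest of these, 2, 0 and 3, came without number 2. The F test between numbers then ranged from 8 to 14 members and from 5174 to 11197 probe sets. The causes were not tested. Median centring, quantile normalisation and the dim filter kept all counts within 1.5 times. Of 48 member differences, none that passed changed sign, and 14 that did not pass changed sign in 1 or more alternatives. Of the member probe sets 2 lay in the dimmest 25%.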
